A study of Macaca mulatta with 12 samples.

Results

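Connexins are the proteins that build gap junctions, and their genes carry the symbols GJA, GJB and GJC in the 3 families examined here. Rows of the expression table were taken where the symbol had one of these letters and a number and where the variance-stabilised value, averaged over 12 libraries, exceeded the minimum of the table by 1 log2 unit or more. Of 16745 genes in the table, 15 had such a symbol and 10 of them met the level. The 8 described here are GJA1, GJA3, GJA5, GJA9, GJB2, GJB5, GJB6 and GJC1. Of these GJB5 lay nearest to the limit, at 1.11 log2 units above the minimum.

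The study grew cells labelled as cardiomyocytes (CMs) made from induced pluripotent stem cells (iPSCs) of the rhesus macaque, Macaca mulatta, as a flat monolayer (2D) or as engineered heart tissue (EHT, 3D), a tissue construct that is usually cast from cells in a gel. Each culture was sampled in normoxia and in hypoxia, with 3 libraries in each of 4 groups, and all were fed RPMI medium with the B27 supplement and insulin. Hypoxia meant 24 hours in an anaerobic pouch and then 24 hours after fresh medium. The labels give this treatment on every library, those labelled normoxia included, and name no separate handling for normoxia, so the groups are told apart by their oxygen label alone. The time of RNA extraction is not in the labels. Whether the normoxic cultures also had fresh medium is not given, so oxygen and the change of medium cannot be told apart. They name neither the animal, the iPSC clone nor separate differentiations, so p-values measure the spread between these libraries, which may be technical.

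A gap junction channel forms when a hexamer of connexins in one cell membrane docks with a hexamer in the next, and ions and small metabolites then pass between the cells. In working heart muscle these channels sit mainly at the intercalated disc, where they carry the current that makes neighbouring cells contract together. GJA1, which encodes Cx43, is the main connexin of ventricular muscle and is also made by fibroblasts and many other cells, while GJB2, which encodes Cx26, is best known from the inner ear, the skin and other epithelia.

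Recovered reads ran from 4154346 to 11298841 per library, and levels are given here as CPM, the reads of a gene divided by all recovered reads of the library and multiplied by 1000000. Gene lengths were not used, so levels are compared between libraries and not between genes. Markers of the labelled cell type were low in EHT: the summed level of 10 cardiomyocyte genes was 16.3 to 185 CPM in EHT in normoxia, against 451 to 3238 in the normoxic monolayer and 5231 to 5766 in the hypoxic one. In hypoxic EHT that sum was 798 and 1077 CPM in replicates 1 and 2 and 28.7 in replicate 3, where 3 of the 10 genes had no read. Fibroblast markers, 8 of 10 listed being in the table, summed to 33263 to 70409 CPM over all 12 libraries. Of the hypoxia response genes, 8 of 8 tested were called higher with hypoxia in each culture, by the fit described below. Of all tested genes 23.9% were so called in the monolayer and 19.4% in EHT. The EHT libraries numbered 3 stood apart, with correlations to the mean of their group of 0.931 in hypoxia and 0.959 in normoxia against 0.967 to 0.992 for the other 10 libraries, and results that rest on them are given with and without them.

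Log2 differences below come from limma on variance-stabilised values whose library scale was reset, with p-values adjusted by Benjamini-Hochberg over 12084 genes and called under 0.05. An error after ± is a standard error for a log2 difference and an SD over 3 libraries for a level. In these bulk libraries fewer cells of a type and less RNA per cell cannot be told apart.

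The level of GJA1 was higher in EHT than in the monolayer in both oxygen conditions. In the normoxic monolayer its level was 487, 473 and 404 CPM in replicates 1, 2 and 3, and in the hypoxic monolayer it was 557, 622 and 555. In EHT the level was 1348, 1168 and 876 CPM in normoxia and 1232, 1112 and 1190 in hypoxia. The 6 EHT libraries all lay above the 6 monolayer libraries, the hypoxic monolayers all lay above the normoxic ones, and the normoxic and hypoxic EHT libraries overlapped. The lowest EHT value was that of normoxic replicate 3. Fibroblast markers summed to 33263 to 70409 CPM in the normoxic monolayer, 43708 to 48934 in the hypoxic monolayer, 51539 to 62926 in normoxic EHT and 51041 to 67841 in hypoxic EHT. Smooth muscle markers, another source of Cx43, summed to 1778 to 4101 CPM in the normoxic monolayer and 5376 to 6459 in the hypoxic monolayer. In EHT they summed to 2073 to 2966 in normoxia and 1343 to 1460 in hypoxia. The part of either list in the GJA1 result was not tested.

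The group means of GJA1 were 454 ± 44.5 CPM in the normoxic monolayer, 578 ± 37.9 in the hypoxic monolayer, 1131 ± 238 in normoxic EHT and 1178 ± 60.8 in hypoxic EHT (SD, n = 3 each). In order of level, the 2 EHT groups did not differ beyond their spread, and each of the other steps separated groups that did not overlap. By limma, GJA1 was higher in EHT than in the monolayer by 1.59 ± 0.18 log2 units in normoxia (Benjamini-Hochberg adjusted p = 1.96e-05) and by 0.89 ± 0.18 in hypoxia (adjusted p = 0.00185). On the scale of CPM the ratios were 2.49 and 2.04, and an exact permutation test, two-sided, gave p = 0.1 for each, the smallest that 3 against 3 libraries allow, or 0.16 after adjustment over 8 such tests.

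In the monolayer GJA1 rose with hypoxia by 0.998 ± 0.18 log2 units (limma, adjusted p = 0.00057), a fold of 2.00 after the scale was reset. On CPM the ratio of hypoxic to normoxic monolayers was 1.27 (exact permutation p = 0.1). The size of this change rests on the library scale: with library totals the log2 difference of GJA1 was 0.35 (adjusted p = 0.0594), while the median of all tested genes stood at -0.73 on that scale. With the scale of the deposited values it was 0.54 (adjusted p = 0.450), and the differences between EHT and monolayer were 0.92 (adjusted p = 0.146) in normoxia and 0.89 (adjusted p = 0.261) in hypoxia. The direction was the same on all these scales.

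In EHT the difference of GJA1 between hypoxia and normoxia was 0.29 ± 0.18 log2 units (limma, adjusted p = 0.217), with a 95% confidence interval from -0.09 to 0.67. On CPM the ratio was 1.04 (exact permutation p = 0.8). The response to hypoxia in EHT minus that in the monolayer was -0.71 ± 0.25 log2 units (limma, adjusted p = 0.0531), which did not pass the threshold. With the replicate number as a block over all 4 groups, a pairing that no label gives, it passed at the same size (adjusted p = 0.0469). This block also matched monolayer with EHT libraries. In comparisons other than hypoxia in EHT, deviations of same-numbered libraries correlated only from -0.07 to 0.19. It also passed without normoxic EHT replicate 3 (-0.93, adjusted p = 0.00421), without hypoxic EHT replicate 3 (-0.73, adjusted p = 0.0470) and without both (-0.96, adjusted p = 0.00205), the last chosen after the data were seen.

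**Figure D1:**
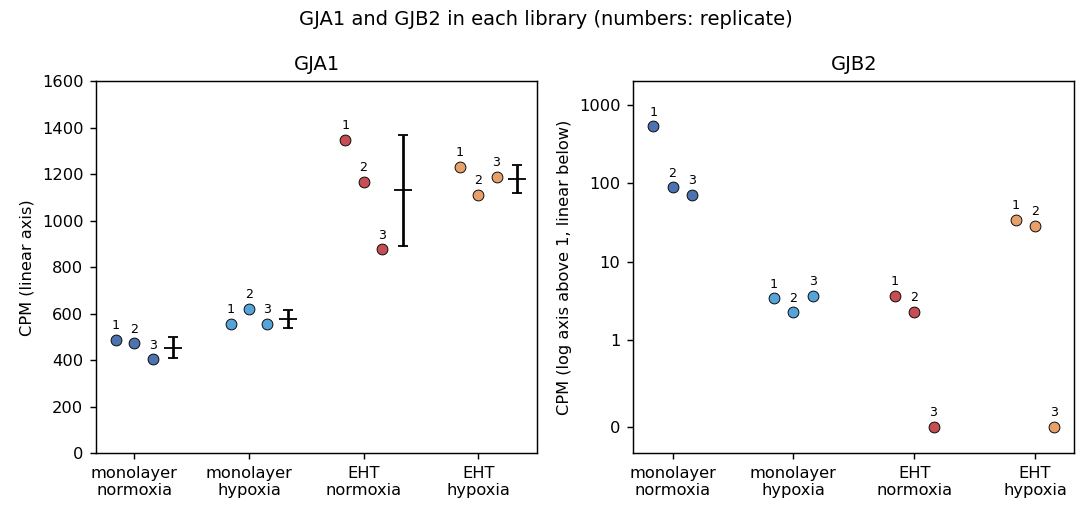
CPM of GJA1 (left, linear axis, with the mean and SD of each group as a bar) and GJB2 (right, log axis above 1 CPM and linear below) in each of the 12 libraries, numbered by replicate within the 4 groups. The lowest EHT library has 876 CPM of GJA1 and the highest monolayer library 622, while GJB2 is highest in the 3 normoxic monolayers, at 71.1 to 528 CPM, and has no read in the EHT libraries numbered 3.

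GJB2 had its highest levels in the normoxic monolayer, the group where GJA1 was lowest. There its level was 528, 88.0 and 71.1 CPM in replicates 1, 2 and 3, from 5970, 952 and 562 reads. In the hypoxic monolayer it was 3.40, 2.25 and 3.68 CPM, from 24, 23 and 32 reads. Each normoxic monolayer thus lay above each hypoxic one, and replicate 1 lay far above the other normoxic monolayers.

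In normoxic EHT GJB2 gave 3.61 and 2.31 CPM in replicates 1 and 2, from 15 and 20 reads, and in hypoxic EHT 34.1 and 28.6, from 192 and 190 reads. Replicate 3 had 0 reads in both EHT groups, which allows up to 0.388 CPM in normoxia and 0.679 in hypoxia at 3 reads, limits that cover counting error only. Hypoxic EHT therefore overlapped both normoxic EHT and the hypoxic monolayer through its replicate 3.

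By limma, GJB2 was lower in EHT than in the monolayer in normoxia by -5.32 ± 1.16 log2 units (Benjamini-Hochberg adjusted p = 0.00262, 95% interval -7.82 to -2.82), and it fell with hypoxia in the monolayer by 4.37 ± 1.16 (adjusted p = 0.00752). By voom on median-of-ratios factors the first of these was not called (-7.50, adjusted p = 0.0539). These 2 comparisons share the normoxic monolayer. The means were 229 ± 259 CPM in the normoxic monolayer, 3.11 ± 0.756 in the hypoxic monolayer and 1.97 ± 1.83 in normoxic EHT (SD, n = 3 each), and both exact permutation tests, two-sided, gave p = 0.1. Without normoxic monolayer replicate 1 the log2 differences were -4.41 (adjusted p = 0.0137) for EHT against monolayer and -3.46 (adjusted p = 0.0387) for hypoxia.

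Between hypoxic and normoxic EHT the difference of GJB2 was 1.94 ± 1.16 log2 units (limma, adjusted p = 0.207, 95% interval -0.56 to 4.44). No label pairs the libraries, and the fit above did not pair them. Replicate numbers were taken as pairs only in an alternative fit. Deviations of same-numbered EHT libraries correlated by 0.115, 0.248 and 0.306. With the replicate number as a block the difference of GJB2 was 1.94 with adjusted p = 0.0367. Without hypoxic EHT replicate 3 it was 3.62 (adjusted p = 0.00172), and without both EHT libraries numbered 3 it was 2.91 (adjusted p = 0.00223). Between EHT and monolayer in hypoxia the difference was 0.99 ± 1.16 log2 units (adjusted p = 0.522, 95% interval -1.51 to 3.49), and without hypoxic EHT replicate 3 it was 2.67 (adjusted p = 0.0132). The response of GJB2 to hypoxia in EHT minus that in the monolayer was 6.31 ± 1.63 log2 units (adjusted p = 0.0132), a call that was lost by voom on library totals (8.85, adjusted p = 0.0897) and on median-of-ratios factors (8.55, adjusted p = 0.117).

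As a share of all reads on GJA, GJB and GJC genes, GJA1 took 40.2% to 70.6% in the normoxic monolayer, 93.1% to 93.9% in the hypoxic monolayer, 95.4% to 96.5% in normoxic EHT and 92.3% to 98.2% in hypoxic EHT. The lowest share, in normoxic monolayer replicate 1, was the single library in which GJB2 took a larger share of reads, 43.7%, than GJA1, with reads not divided by gene length. The family without GJA1 gave 168 to 723 CPM in the normoxic monolayer and 21.5 to 92.3 in the other 9 libraries. No library of those 9 reached the lowest normoxic monolayer.

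Of the 8 connexins, GJA3, GJB5 and GJB6 met the level only through the group where each was highest. Without that group they lay 0.65, 0.69 and 0.65 log2 units above the minimum, so the counts over the 8 are given as a description. Among them 1 was higher and 5 were lower in EHT than in the monolayer in normoxia by limma, where 19.1% of all tested genes were called higher and 24.8% lower, 43.9% in all. The median log2 difference was -1.26 over the 8 and -0.07 over all tested genes. In hypoxia 1 connexin was higher (background 17.8%) and 1 lower (22.4%, or 40.2% in both directions), with medians of 0.05 and -0.06 in that order. With hypoxia in the monolayer 2 rose (background 23.9%) and 4 fell (24.2%, or 48.1% in both directions), with medians of -0.75 and -0.07. With hypoxia in EHT 0 rose by limma (background 19.4%), with or without adjustment, and by voom, while GJB2 was called higher with the replicate block (adjusted p = 0.0367) and with the deposited scale (adjusted p = 0.00533), and 1 fell (18.5%, or 37.9% in both directions), with medians of 0.56 and 0.01. The difference of the 2 responses was called higher for 2 connexins (background 13.6%) and lower for 0 (13.4%, or 27% in both directions), with 1 lower at an unadjusted p under 0.05 and 1 called lower by voom on median-of-ratios factors. With the level set at 2 log2 units above the minimum, where GJA3, GJB5 and GJB6 were not tested, 1 connexin was higher and 2 were lower in normoxia, 1 and 0 in hypoxia, 1 rose and 3 fell with hypoxia in the monolayer, 0 and 1 in EHT, and the difference of responses was called higher for 1 and lower for 0. No test of these counts was made. Without both EHT libraries numbered 3, a choice made after the data were seen, 1 connexin was higher and 5 were lower in normoxia, 3 and 1 in hypoxia, 2 rose and 1 fell with hypoxia in EHT, and the difference of responses was called higher for 4 and lower for 1. Over all 12084 genes the counts without them were 2557 higher and 3252 lower, 2438 and 2877, 2961 and 2602, and 2341 and 2152 in the same order.

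**Figure D2:**
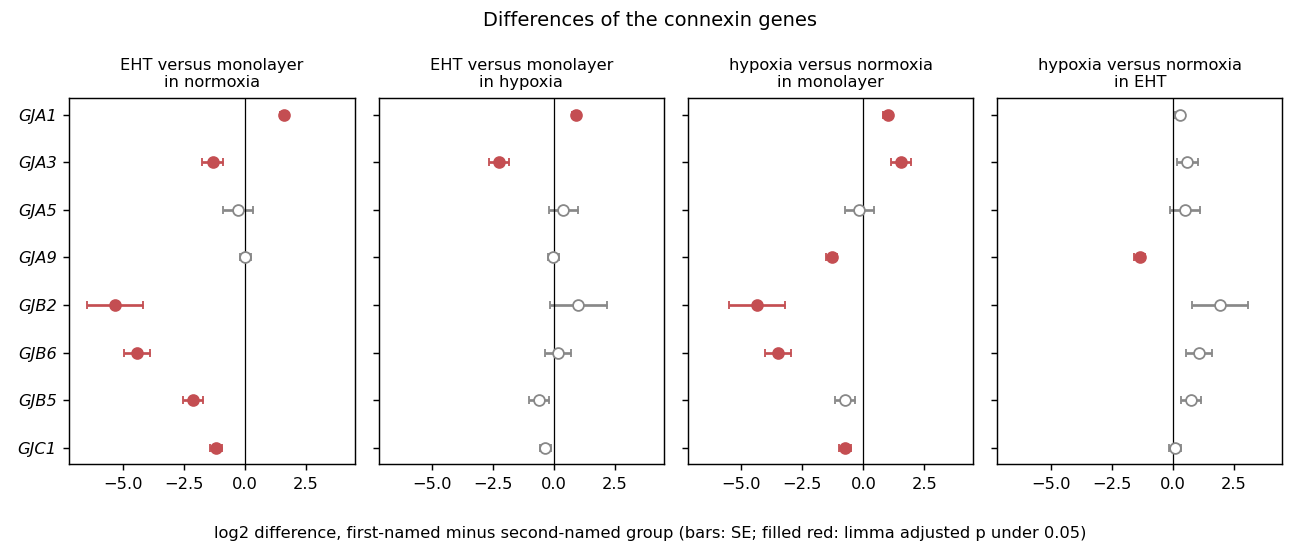
Log2 differences of the 8 connexins (rows) in the 4 comparisons of groups (panels), first-named minus second-named group, with the standard error from limma as bars and filled red points where the adjusted p was under 0.05. GJA1 lies to the right of 0 in the first 3 comparisons, and GJB2, GJB6, GJB5 and GJC1 lie to the left of 0 for EHT against monolayer in normoxia.

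The other connexins of the heart are GJA5 and GJC1. GJC1 encodes Cx45, a connexin of the early heart and of the sinoatrial and atrioventricular nodes. Its level was 41.0, 37.0 and 35.9 CPM in the normoxic monolayer, 13.7, 15.2 and 12.2 in the hypoxic monolayer, 11.3, 7.96 and 19.6 in normoxic EHT, and 14.4, 11.3 and 8.83 in hypoxic EHT. The 3 normoxic monolayers lay above all other libraries, which overlapped. GJC1 was lower by -1.20 ± 0.24 log2 units in EHT than in the monolayer in normoxia (limma, adjusted p = 0.00146) and fell by 0.75 ± 0.24 with hypoxia in the monolayer (adjusted p = 0.0196). The latter missed the threshold without normoxic monolayer replicate 1 (adjusted p = 0.0646), hypoxic replicate 1 (0.0526) or hypoxic replicate 3 (0.0704), and with the deposited scale (adjusted p = 0.0603). The other differences, of -0.36 between the cultures in hypoxia (95% interval -0.87 to 0.16) and 0.09 with hypoxia in EHT (-0.42 to 0.60), were not called. The response in EHT minus that in the monolayer was 0.84 ± 0.34 (limma, adjusted p = 0.0829). It was called without normoxic EHT replicate 3 (1.09, adjusted p = 0.0183), hypoxic EHT replicate 3 (0.98, 0.0369) or both (1.23, 0.00361). By voom on library totals it was 1.40 (adjusted p = 0.0233).

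GJA5 encodes Cx40, the connexin of atrial muscle, the fast conduction system and arterial endothelium. It gave 5.93, 9.15 and 11.1 CPM in the normoxic monolayer and 6.08, 2.93 and 5.52 in the hypoxic one. In EHT it gave 11.6, 6.46 and 1.42 CPM in normoxia and 7.81, 19.9 and 1.81 in hypoxia. The lowest values were in the EHT libraries numbered 3, and the groups of all 4 comparisons overlapped on the fitted scale. No difference was called, and the 95% interval for EHT against monolayer in normoxia, from -1.60 to 1.02 log2 units, leaves changes of 1 log2 unit either way within it. Endothelial markers, 6 in the table, summed to 192 to 412 CPM in the normoxic monolayer, 185 to 225 in the hypoxic monolayer, 29.1 to 63.2 in normoxic EHT and 16.7 to 95.6 in hypoxic EHT. Without both EHT libraries numbered 3, GJA5 was higher in hypoxic EHT than in the hypoxic monolayer by 1.05 log2 units (adjusted p = 0.0327).

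Several GJB genes encode connexins of the epidermis and the cochlea. GJB6 encodes Cx30, the partner of Cx26 in the cochlea, and it had 86.4, 17.4 and 13.4 CPM in the normoxic monolayer but 0.141, 0.685 and 0.460 in the hypoxic one. It had 0 reads in each normoxic EHT library and 0.355, 1.51 and 0.226 CPM in hypoxic EHT, from 2, 10 and 1 reads. All normoxic monolayers lay above all other libraries.

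GJB6 was lower by -4.43 ± 0.53 log2 units in EHT than in the monolayer in normoxia (limma, adjusted p = 3.65e-05), and fell by 3.497 ± 0.53 with hypoxia in the monolayer (adjusted p = 0.000193). Both differences are against the normoxic monolayer, through which alone GJB6 met the level for testing, so they are given as a description. Against a floor of 3 reads over the 3 normoxic EHT libraries, its level in the normoxic monolayer was at least 290-fold higher. That limit was 108-fold without normoxic monolayer replicate 1, which held 976 of the 1270 reads, and 167-fold or 181-fold without normoxic EHT replicate 2 or 3. With hypoxia in EHT the difference of 1.07 ± 0.53 log2 units (adjusted p = 0.133) was not called, although the groups did not overlap, and 10 of the 13 reads in hypoxic EHT came from replicate 2. The response in EHT minus that in the monolayer was 4.57 ± 0.76 log2 units (adjusted p = 0.00106). It was not called by voom on library totals (9.09, adjusted p = 0.0549) or on median-of-ratios factors (8.64, adjusted p = 0.0854), and the normoxic monolayer that takes GJB6 past the level for testing also sets this difference.

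GJB5, which encodes a connexin of the epidermis, gave 7.52, 2.96 and 2.02 CPM in the normoxic monolayer, 0.424, 1.08 and 1.38 in the hypoxic monolayer, 0 in the 3 normoxic EHT libraries and 0.710, 0.602 and 0 in hypoxic EHT. It was lower in EHT than in the monolayer in normoxia by -2.13 ± 0.40 log2 units (limma, adjusted p = 0.000981), and at least 30.3-fold by reads against the same floor. That limit was 17.6-fold without normoxic monolayer replicate 1, and 17.5-fold or 18.9-fold without normoxic EHT replicate 2 or 3. GJB5 met the level for testing only through the normoxic monolayer, so this difference between the cultures is given as a description. With hypoxia in the monolayer its difference was -0.75 ± 0.40 (adjusted p = 0.140, 95% interval -1.61 to 0.12). With hypoxia in EHT the difference was 0.75 ± 0.40 (adjusted p = 0.155), and without hypoxic EHT replicate 3 it was 1.13 (adjusted p = 0.0254).

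**Figure D3:**
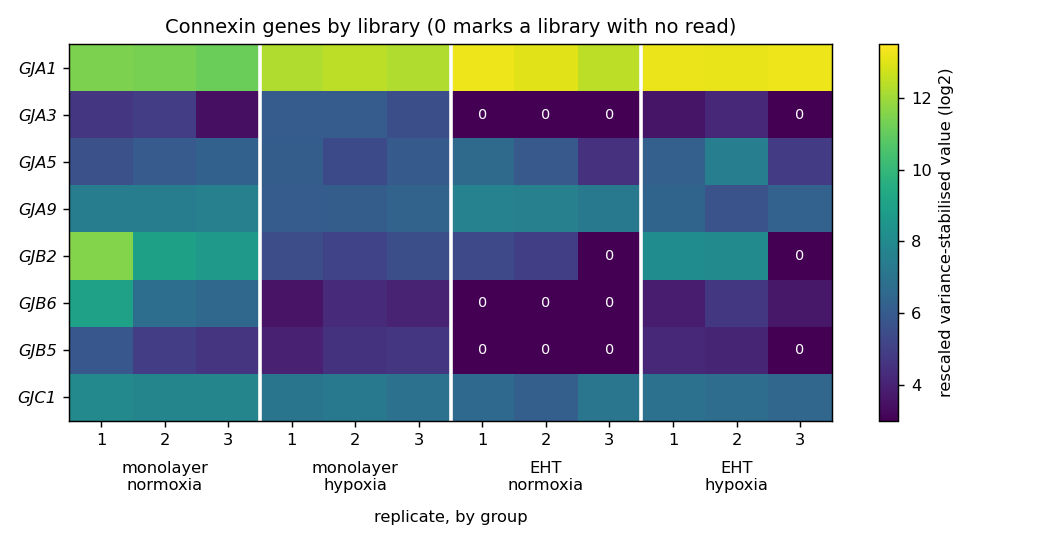
Heat map of the 8 connexins (rows) in the 12 libraries (columns, by group and replicate), coloured by the variance-stabilised log2 value after the scale was reset, with 0 printed where a library had no read. GJA3, GJB5 and GJB6 have no read in the 3 normoxic EHT libraries, and GJB6 is highest in the 3 normoxic monolayers.

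Genes of epithelial cells moved with these GJB genes. Of 10 epithelial markers 9 were in the table, and their summed level was 9210, 2325 and 1849 CPM in the normoxic monolayer, 94.2 to 105 in the hypoxic monolayer and 3.37 to 7.94 in normoxic EHT. In hypoxic EHT the sum was 149 and 170 CPM in replicates 1 and 2 and 13.4 in replicate 3. Between 2 and 5 of the 9 markers had no read in a normoxic EHT library. By limma all 9 were lower in EHT in normoxia (100%, against 24.8% of all tested genes), and all 9 fell with hypoxia in the monolayer (background 24.2%). Between the cultures in hypoxia 1 was lower in EHT (11.1%, background 22.4%) and 8 were not called. With hypoxia in EHT 4 rose (44.4%, background 19.4%). The response in EHT minus that in the monolayer was called higher for all 9 (background 13.6%).

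Set against these marker reads, the GJB genes did not keep 1 ratio. GJB2 had 5.74, 3.78 and 3.84 reads per 100 epithelial marker reads in the normoxic monolayer and 3.47, 2.14 and 3.90 in the hypoxic one, so the monolayer groups overlapped. In EHT it had 45.5, 44.4 and 0 in normoxia, over 33, 45 and 26 marker reads, and 22.9, 16.9 and 0 in hypoxia, over 837, 1127 and 59. GJB6 had 0.725 to 0.938 reads per 100 marker reads in the normoxic monolayer, 0.145 to 0.652 in the hypoxic monolayer and 0.239 to 1.69 in hypoxic EHT. The part of the epithelial markers in the GJB results was not tested.

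**Figure D4:**
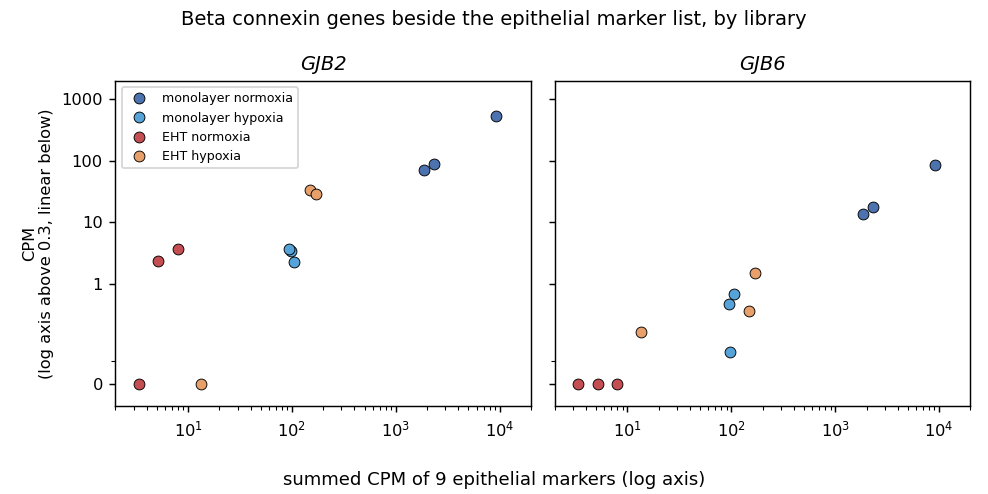
CPM of GJB2 and GJB6 (panels, log axis above 0.3 CPM and linear below) against the summed CPM of 9 epithelial markers (log axis), with 1 point per library and the 4 groups by colour. The normoxic monolayers lie at 1849 to 9210 CPM of the markers, and the other 9 libraries lie at 170 or less.

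The remaining members have their known roles outside heart muscle. GJA3 encodes Cx46 of the lens, and it gave 2.04, 2.96 and 0.127 CPM in the normoxic monolayer, 5.94, 5.67 and 3.56 in the hypoxic monolayer, 0 in the 3 normoxic EHT libraries, and 0.178, 0.753 and 0 in hypoxic EHT. Every hypoxic monolayer lay above every other library. GJA3 rose with hypoxia in the monolayer by 1.54 ± 0.41 log2 units (limma, adjusted p = 0.00806) and was lower in EHT than in the monolayer by -1.33 ± 0.41 in normoxia (adjusted p = 0.0201) and by -2.27 ± 0.41 in hypoxia (adjusted p = 0.00103). GJA3 met the level for testing only through the hypoxic monolayer. The rise in the monolayer and the difference in hypoxia involve that group, so they are given as a description. The difference in normoxia missed the threshold without normoxic monolayer replicate 1 (adjusted p = 0.0672) or replicate 2 (0.0896), and it was -0.66 (adjusted p = 0.420) when the deposited values were centred on library medians. With hypoxia in EHT it was 0.61 (95% interval -0.29 to 1.501).

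GJA9 was lower in the libraries labelled hypoxia in both cultures. It gave 27.5, 29.0 and 30.7 CPM in the normoxic monolayer and 26.0, 24.3 and 21.4 in normoxic EHT, against 5.94, 5.97 and 7.70 in the hypoxic monolayer and 9.05, 4.52 and 7.92 in hypoxic EHT. All 6 normoxic libraries lay above all 6 hypoxic ones. GJA9 fell with hypoxia by 1.30 ± 0.22 log2 units in the monolayer (limma, adjusted p = 0.000346) and by 1.36 ± 0.22 in EHT (adjusted p = 0.000413), and the 2 responses differed by -0.05 (95% interval -0.71 to 0.61). With the deposited scale the change in EHT was -1.14 (adjusted p = 0.133). Between the cultures the differences were 0.02 log2 units in normoxia (95% interval -0.45 to 0.48) and -0.04 in hypoxia (-0.50 to 0.43). These values are uncertain as a measure of GJA9, because MYCBP is its neighbour in the RefSeq gene order of the T2T-MMU8v2.0 assembly, is not analysed here, and reads at such a border could be counted to either gene.

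Among the symbols under the level, GJA10, a connexin of the eye, and GJB1, the connexin of hepatocytes and Schwann cells, had 0 reads in all 12 libraries. GJC3 had 4 reads in 3 libraries. GJD2, the main connexin of neurons, had 12 reads in 5 monolayer libraries and 0 in EHT. PANX1 and PANX2, which encode pannexins, channel proteins that rarely form gap junctions, were tested and called by limma in no comparison, while PANX1 was lower at an unadjusted p under 0.05 both in hypoxic EHT against the hypoxic monolayer and in hypoxic against normoxic EHT.

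By gene order in the same RefSeq assembly, GJB6, GJB2 and GJA3 are direct neighbours on chromosome 17. With hypoxia in the monolayer GJB2 and GJB6 were lower and GJA3 was higher. GJB6 met the level for testing only through the normoxic monolayer, and GJA3 only through the hypoxic one. No conclusion about the neighbours is therefore drawn from these directions. As a description over 12 libraries that share group and library scale, the Pearson correlation of fitted values was 0.87 for GJB2 with GJB6, 0.83 for GJB2 with GJB5, 0.86 for GJB5 with GJB6, 0.21 for GJB2 with GJA3 and -0.90 for GJA1 with GJC1.

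The 5 genes most like GJA1 by Pearson correlation over the 12 libraries, among 10481 genes, were CAV1 at 0.98, VWA1 at 0.97, and QSOX1, SLC17A5 and ALDH1L2 at 0.96 each. CAV1, which encodes the caveolar coat protein caveolin, gave 45.8 to 68.1 CPM in the normoxic monolayer, 80.1 to 97.0 in the hypoxic monolayer, 127 to 192 in normoxic EHT and 148 to 225 in hypoxic EHT. Its groups stood in the order of those of GJA1, which is no separate result, as it was picked by its likeness to GJA1. The 5 most like GJB2 were KRT5 at 0.97, KIAA1217, KRT16 and CHRDL2 at 0.96, and FAT2 at 0.95. KRT5 and KRT16 encode keratins of stratified epithelia, and KRT5 gave 543 to 4229 CPM in the normoxic monolayer, 4.53 to 16.5 in the hypoxic one, 0 to 2.19 in normoxic EHT and 0.453 to 51.4 in hypoxic EHT.

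Partners of Cx43 at the junction, scaffold and adhesion proteins, moved in both directions. Of 14 tested, 3 were higher and 7 lower in EHT than in the monolayer in normoxia (21.4% and 50.0%, against 19.1% and 24.8% of all tested genes), and 1 was higher and 8 lower in hypoxia (7.14% and 57.1%, against 17.8% and 22.4%). With hypoxia in the monolayer 6 rose and 4 fell (42.9% and 28.6%, against 23.9% and 24.2%), and in EHT 1 rose and 4 fell (7.14% and 28.6%, against 19.4% and 18.5%). The same shares of all tested genes are the background of the next 3 lists, and no list was tested against it. For all 4 lists the counts with hypoxia in the monolayer rest on the library scale. With voom on library totals 16.2% of the genes called there were higher, against 49.8% on the scale used. The junction list summed to 3144 to 4509 CPM in the normoxic monolayer and 2542 to 2756 in the hypoxic one. CDH2, which encodes N-cadherin of the intercalated disc, had 104 to 286 CPM in the normoxic monolayer, 434 to 493 in the hypoxic monolayer, 316 to 421 in normoxic EHT and 75.6 to 109 in hypoxic EHT. CDH2 thus rose with hypoxia in the monolayer by 1.81 log2 units (limma, adjusted p = 0.000435) and fell by 1.71 in EHT (adjusted p = 0.00101), and the responses differed by -3.52 (adjusted p = 0.0002).

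TJP1, the scaffold ZO-1 that binds the tail of Cx43, fell by 0.88 log2 units with hypoxia in the monolayer (limma, adjusted p = 0.0224). In EHT its difference was -0.53 (adjusted p = 0.166), and between the cultures it was 0.12 (adjusted p = 0.771) in normoxia and 0.47 (adjusted p = 0.211) in hypoxia. The values of TJP1 in hypoxic EHT were spread from 48.9 to 135 CPM, with a median of 63.0 and the highest in replicate 3. Normoxic EHT had 122 to 135 CPM. The uncalled differences of TJP1 that involve hypoxic EHT thus rest in part on replicate 3, and its fit without that library is not given here. CTNNB1, which encodes beta-catenin, fell by 0.71 log2 units with hypoxia in each culture and was lower by -0.57 in EHT in each oxygen condition, all 4 called. CAV1 was higher in EHT by 1.76 log2 units in normoxia (adjusted p = 3.1e-05) and by 0.98 in hypoxia (adjusted p = 0.00266), and it rose by 1.26 with hypoxia in the monolayer (adjusted p = 0.000331). JUP, which encodes plakoglobin, was lower by -2.06 log2 units in normoxic EHT, and DBN1, which encodes the actin-binding drebrin, fell by 0.97 with hypoxia in EHT.

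Genes of connexin trafficking and turnover, 11 tested, had 4 higher and 1 lower in EHT in normoxia (36.4% and 9.09%, background 19.1% and 24.8%) and 2 higher and 8 lower in hypoxia (18.2% and 72.7%, background 17.8% and 22.4%). SMURF2, a ubiquitin ligase that acts on Cx43, was higher in EHT by 1.32 log2 units in normoxia (limma, adjusted p = 1.44e-05) and by 0.49 in hypoxia (adjusted p = 0.0152). With hypoxia 5 rose and 1 fell in the monolayer (45.5% and 9.09%, background 23.9% and 24.2%), among them CLTC, the clathrin heavy chain, by 0.91 (adjusted p = 0.000194), while 1 rose and 3 fell in EHT (9.09% and 27.3%, background 19.4% and 18.5%), among them KIF5B, a kinesin motor, by 1.15 (adjusted p = 0.00852). The response in EHT minus that in the monolayer was called lower for 6 of the 11 (54.5%, background 13.4%), and 0 were higher by limma, with or without adjustment. The library scale bears on this count too. With voom on library totals 80.5% of all genes called for this difference were higher, against 50.5% on the scale used. The list summed to 1709 to 2044 CPM in the normoxic monolayer and 1733 to 1843 in the hypoxic one.

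Of 12 kinases and phosphatases known to act on Cx43, 1 was higher and 2 were lower in EHT in normoxia, 8.33% and 16.7%, both below the backgrounds of 19.1% and 24.8%. In hypoxia 5 were lower by limma (41.7%, background 22.4%) and 0 higher with or without adjustment. PRKCD, a protein kinase C, was higher by 1.46 log2 units in normoxic EHT (limma, adjusted p = 7.34e-05), and SRC, the tyrosine kinase, was lower by -1.29 (adjusted p = 0.000373). With hypoxia 4 rose and 1 fell in the monolayer (33.3% and 8.33%, background 23.9% and 24.2%), and 1 rose and 3 fell in EHT (8.33% and 25.0%, background 19.4% and 18.5%). On CPM the list was lower in the hypoxic monolayer, summing to 766 to 804 against 1074 to 1214 in the normoxic one. There AKT1 gave 127 to 133 CPM in hypoxia and 252 to 272 in normoxia. AKT1 fell by 0.35 log2 units with hypoxia in the monolayer (adjusted p = 0.0208) and by 1.21 in EHT (adjusted p = 8.81e-06), where MAPK3 rose by 1.34 (adjusted p = 0.000961).

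Among 12 transcription factors known to act on cardiac connexin genes, 6 were lower in EHT in normoxia by limma (50.0%, background 24.8%) and 0 higher (background 19.1%), or 8 and 0 at an unadjusted p under 0.05. In hypoxia 2 were higher and 6 lower (16.7% and 50.0%, background 17.8% and 22.4%). NKX2-5 and TBX5, which activate Gja5 in the mouse, were both lower in hypoxic EHT than in the hypoxic monolayer, by -3.74 (limma, adjusted p = 0.000164) and -1.95 log2 units (adjusted p = 7.7e-05). In normoxia TBX5 was lower by -1.07 (adjusted p = 0.00324), and the difference of NKX2-5 was -1.17 (adjusted p = 0.0839). TBX3, a repressor of Gja1 and Gja5 in the mouse, differed by 0.27 log2 units between the cultures in normoxia (adjusted p = 0.53) and was lower in EHT by -0.96 in hypoxia (adjusted p = 0.0312). With hypoxia 5 factors rose and 3 fell in the monolayer (41.7% and 25.0%, background 23.9% and 24.2%) and 3 rose and 1 fell in EHT (25.0% and 8.33%, background 19.4% and 18.5%). On CPM the 12 factors were lower in the hypoxic monolayer, summing to 531 to 602 against 695 to 1006 in the normoxic one. SP1 rose in both cultures (adjusted p = 0.000218 and 0.000273). The lower values of NKX2-5 and TBX5 in EHT stood beside the lower cardiomyocyte markers given above. Of these markers 7 of 10 were lower in EHT in each oxygen condition (70%, background 24.8% in normoxia and 22.4% in hypoxia). The part of these markers was not tested.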

How the data were processed

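RNA was prepared with the RNeasy Mini Kit and sequenced on the Ion Proton after the Ion Total RNA-Seq Kit v2, per the labels' protocols. The authors used HISAT2, featureCounts and DESeq2, per the submitters' processing notes. No version of these tools, no build and no annotation is given in the sources used here. The deposited values are log2-scale output of the DESeq2 variance-stabilising transformation, made by the authors, with a minimum of 3.00 at 0 reads. Inverting the transformation gave whole reads within a tolerance of 0.01 for 100% of values. The deposited library scale factors were 0.412 to 1.42 times median-of-ratios factors of these reads, so the scale was reset with the latter and the transformation reapplied. That is the scale of all main results. Because the transformation is flat near 0 reads, a log2 difference of a weakly read gene is smaller than its fold. The median of the tested genes was 6.98 to 8.75 per library as deposited and 7.39 to 7.56 after the reset.

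Genes with a mean at least 1 log2 unit above the minimum, 12084 in all, were fitted with limma 3.58.1 (R 4.3.3), with 1 mean per group, moderated variances and a mean-variance trend. Benjamini-Hochberg adjustment was made within each of 5 comparisons. For GJA1 and GJB2 a two-sided exact permutation test was run on CPM. The fit was tested on simulated data. Python 3.11.15 was used for the other steps. All 18 connexin symbols of the table matched RefSeq symbols.

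The members, gene lists and markers were chosen with earlier results of these data known. Some connexin genes are not reported here, and counts over connexins cover the 8 described. Named genes were these connexins, up to 3 list members per direction with the smallest p, 7 genes fixed by name, and the 5 most like GJA1 and GJB2; not all of the listed genes allowed by this rule are printed. The main fit did not pair libraries. Deviations from group means correlated between same-numbered EHT libraries by 0.115, 0.248 and 0.306. Numbers were taken as pairs only in the replicate block, an alternative fit, and no label gives this pairing. Alternatives covered the library scale, voom, the filter, the trend, the replicate block, the groups in the fit and each library left out.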

Additional observations from a re-analysis of the deposited data

Results flagged for a closer look

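The difference between the responses to hypoxia in EHT and monolayer was called for 2 connexins, GJB2 and GJB6, by limma with Benjamini-Hochberg adjustment over 12084 genes. Neither call was kept by voom, and that of GJB6 is a description only. For GJB2, the log2 change in EHT minus that in the monolayer was 6.31 ± 1.63 (adjusted p = 0.0132), from a fall in the monolayer in 3 of 3 hypoxic libraries and values above every normoxic EHT library in 2 of 3 hypoxic EHT libraries. By voom this call was lost (8.85 and 8.55, adjusted p = 0.0897 and 0.117 on library totals and median-of-ratios factors). For GJB6 the difference of responses was 4.57 ± 0.76 (adjusted p = 0.00106), with 13 reads in hypoxic EHT and 0 in normoxic EHT, and by voom it was not called (9.09 and 8.64, adjusted p = 0.0549 and 0.0854). GJB6 met the level for testing only through the normoxic monolayer, which also sets this difference, so the value is given as a description. The same difference was called higher for 9 of 9 epithelial markers (100%, against 13.6% of all tested genes), and the part of these markers was not tested.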

How the results depend on the processing

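With the deposited library scale, 3424, 1553, 2945, 1128 and 1249 genes were called for EHT against monolayer in normoxia, in hypoxia, hypoxia in the monolayer, in EHT and the difference of responses, against 5302, 4855, 5812, 4583 and 3265. Their shares called higher were 9.49%, 39.1%, 18.2%, 76.1% and 91.8%, against 43.6%, 44.3%, 49.8%, 51.2% and 50.5%. With voom on library totals the shares were 24.0%, 56.2%, 16.2%, 33.8% and 80.5%, and the deposited values centred on library medians gave 55.2% and 59.9% for EHT in normoxia and hypoxia in the monolayer. On library totals the median of all tested genes was -0.38, 0.07, -0.73, -0.18 and 0.50 log2 units in that order. With the deposited scale GJA1 was 0.92, 0.89 and 0.54 in the first 3 comparisons, none called, and GJB2 with hypoxia in EHT was 1.82 (adjusted p = 0.00533). With voom on library totals GJA1 was 0.35 with hypoxia in the monolayer and the difference of responses of GJB2 was 8.85 (adjusted p = 0.0897). With voom on median-of-ratios factors GJB2 was -7.50 for EHT in normoxia (adjusted p = 0.0539), and the differences of responses were 8.55 for GJB2 (adjusted p = 0.117) and -0.72 for GJA1 (adjusted p = 0.0486). That of GJB6 missed the threshold by both voom fits (9.09 and 8.64, adjusted p = 0.0549 and 0.0854). The cause was not tested. With the replicate block GJB2 with hypoxia in EHT was 1.94 (adjusted p = 0.0367) and the difference of responses of GJA1 was -0.71 (adjusted p = 0.0469). The block changed no other call of the 8 connexins described. For the difference of responses the block ran over all 4 groups. In comparisons other than hypoxia in EHT the same-numbered libraries correlated from -0.07 to 0.19. Without both EHT libraries numbered 3, chosen after seeing the data, GJB2 was 2.67 in hypoxia (adjusted p = 0.00238) and 2.91 with hypoxia in EHT, the difference of responses of GJA1 was -0.96, GJA5 in normoxia was 0.31, and GJA1 with hypoxia in EHT was -85.7 CPM, against 47.3. Leaving out 1 library at a time, that value ran from -79.9 to 156, GJB2 ran from 0.11 to 2.67 in hypoxia and from 1.06 to 3.62 with hypoxia in EHT, and the difference of responses of GJA1 from -0.93 to -0.55. The cause of these shifts was not tested beyond the smaller number of libraries.

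Uncalled differences that changed sign stayed uncalled. GJA9 was -0.61, -0.30 and -0.0046 between cultures in normoxia with the deposited scale, voom on totals and voom on median-of-ratios factors, 0.0065 and 0.041 in hypoxia on centred values and voom on totals, and 0.58 and 0.34 for the difference of responses with the deposited scale and voom on totals. By voom on totals GJC1 was -0.066 with hypoxia in EHT. Leaving out 1 library, GJA5 ran from -0.76 to 0.31 between cultures in normoxia, from -0.27 to 1.05 in hypoxia, from -0.35 to 0.060 with hypoxia in the monolayer and from -0.15 to 1.18 in EHT. GJA9 ran from -0.062 to 0.14, from -0.17 to 0.19 and, for the difference of responses, from -0.18 to 0.17. GJB6 ran from -0.17 to 0.33 in hypoxia and GJC1 from -0.14 to 0.34 with hypoxia in EHT. Over the 6 others of these 8, 442 alternative values kept direction and call, 10 lost the call, 11 gained it and 26 changed sign. With 3 libraries a group, and 0 reads in many EHT libraries, small differences of GJA3, GJB5 and GJB6 were not detectable at this depth.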
